A study of Homo sapiens with 9 samples.

Results

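The 36 genes described here belong to sterol and fatty acid synthesis or, like the SREBPs, sense sterols and switch it on. They were followed in Rh30, a human FP-RMS (fusion-positive rhabdomyosarcoma) cell line that carries the PAX3-FOXO1 fusion gene. They were listed by name and by their place in the pathway, with earlier results of these data known. Their counts are therefore a description, and no test was run over the list. Of the 36, 32 could be measured among the 19775 genes that the arrays name, 19 in the sterol branch and 13 in the fatty acid branch. CYP51A1 was read only by 2 probe sets shared with LRRD1 and FADS1 only by 3 shared with MIR1908, so neither is given a value. The expression of FDFT1 and ACSL3 was not analysed here. A gene was read from the brightest of its probe sets that carry that gene name alone. The 32 genes have 77 such probe sets among 54613.

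RNA was hybridised to Affymetrix U133 Plus 2.0 arrays, 3 biological replicates in each of 3 groups and 9 arrays in all. For the xenograft group, the labels say that adherent or sphere cells were put under the skin of the flank with Matrigel, while the study's methods give an intramuscular route (left gastrocnemius, SCID/beige mice) with adherent cells in PBS, so the route is not settled here. Spheres had spent 48 h in ultra-low attachment plates in Neurobasal media with 1X B27, bFGF (80 ng/ml), EGF (40 ng/ml) and insulin (50 µg/ml), and adherent cells were monolayers in RPMI with 10% FBS. The sphere and adherent groups therefore differ in medium, serum and growth factors as well as in attachment, and these cannot be told apart. All groups are 1 cell line with 1 fusion gene, and the mice lack lymphocytes but keep their own stroma.

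Cells build cholesterol from acetyl-CoA through mevalonate, isoprenoids, squalene and a chain of ring-modifying enzymes, and build fatty acids from the same acetyl-CoA through malonyl-CoA. Both branches are switched on by the SREBP transcription factors, SREBF2 mainly for sterols and SREBF1 mainly for fatty acids. When membranes hold enough sterol, the INSIG proteins keep the SREBP escort SCAP in the endoplasmic reticulum, and the pathway falls quiet. SREBPs act at sterol regulatory elements beside CCAAT boxes, where the factor NF-Y binds, and GC boxes, where Sp1 binds.

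Promoter sequence was examined because many of these genes moved together. RefSeq promoters (GRCh38.p14) were found for 32 of the 36 genes, 43 promoters in all, and the 250 bases before each start were searched on both strands. These are not the same 32 genes as those measured. No promoter was matched for ACAT2, FDFT1, SQLE or FASN, while CYP51A1, FADS1 and ACSL3, which have no expression values here, are included. The sterol regulatory element TCACNCCAC was in 1 of the 43 (2.33%), against 0.883% of all 35116 promoters. The CCAAT box CCAAT was in 27 of the 43 (62.8%), against 32.0% of all promoters. The GC box GGGCGG was in 37 (86.0%), against 42.6%, and the E-box CACGTG in 4 (9.3%), against 6.34%. A match describes letters only and is not a bound site. The stretches below are from the 1 promoter with a sterol regulatory element and from the promoters with 3 or more CCAAT matches among genes that were lower in spheres than in both other groups. MVK, with 5 CCAAT matches, and MSMO1, with 4, were not called in spheres against adherent cells and are not shown. AACS was lower in spheres than in both other groups and had no CCAAT match. Whether CCAAT matches go with the changes was not tested. Capitals mark CCAAT or its reverse complement ATTGG and, in SREBF2, also the sterol regulatory element. In IDI1 and NSDHL, a forward and a reverse match overlap in CCAATTGG and count as 2.
SREBF2, chr22:41832962-41833013, plus strand, bases -143 to -92 from the start: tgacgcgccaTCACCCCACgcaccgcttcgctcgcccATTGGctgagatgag
MVD, chr16:88663162-88663260, minus strand, bases -169 to -71: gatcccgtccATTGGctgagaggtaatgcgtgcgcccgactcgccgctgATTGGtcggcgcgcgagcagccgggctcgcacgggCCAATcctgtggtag
IDI1, chr10:1048959-1049028, minus strand, bases -142 to -73: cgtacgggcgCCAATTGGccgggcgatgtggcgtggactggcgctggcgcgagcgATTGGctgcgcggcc
FDPS, chr1:155308680-155308829, plus strand, bases -186 to -37: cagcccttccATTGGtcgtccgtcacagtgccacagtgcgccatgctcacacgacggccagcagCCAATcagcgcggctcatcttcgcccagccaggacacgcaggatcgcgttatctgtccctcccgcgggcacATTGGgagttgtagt
NSDHL, chrX:152830825-152830993, plus strand, bases -238 to -70: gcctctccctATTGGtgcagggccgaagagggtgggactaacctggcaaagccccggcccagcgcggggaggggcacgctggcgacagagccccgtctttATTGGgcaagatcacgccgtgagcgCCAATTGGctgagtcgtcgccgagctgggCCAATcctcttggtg
EBP, chrX:48521607-48521792, plus strand, bases -201 to -16: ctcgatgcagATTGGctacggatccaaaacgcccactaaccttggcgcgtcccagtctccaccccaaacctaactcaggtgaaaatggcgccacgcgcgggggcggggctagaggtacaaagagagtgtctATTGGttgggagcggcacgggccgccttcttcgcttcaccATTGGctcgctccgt

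The values are the authors' log2 RMA values, a scale of probe brightness on which a change of 1 is 2-fold, and levels of different genes are not set against each other. Changes are differences of group means on that scale with their standard errors (SE), tested by limma with Benjamini-Hochberg adjustment over all probe sets, and a gene was called at an adjusted p under 0.05. Array medians lay between 4.78 and 4.87, and arrays of 1 group correlated at 0.990 to 0.998. The 7 defining genes of Rh30 (MYOD1, MYOG, DES, FGFR4, CDH15, CHRNA1 and PAX3) had a bright mean in every group. Against adherent cells, none was higher and 3 were lower in spheres, with changes from -0.91 to -0.05. In xenografts 1 was higher and 3 were lower, with changes from -0.82 to 0.34. Over all genes, 13.5% were higher and 16.3% lower in spheres, and 12.6% and 14.3% in xenografts. All 7 changes were below 0 in spheres and 5 of 7 in xenografts. MYOD1 averaged 10.87 in xenografts, 11.07 in spheres and 11.12 in adherent cells, and FGFR4 averaged 11.69, 11.13 and 11.35 in the same order. These genes do not stand for all 7. MYOD1 lay near the smallest of the sphere changes and FGFR4 near the highest of the xenograft changes. The 3′ minus 5′ difference of the ACTB control probe sets, a sign of RNA integrity, was 2.48 ± 0.23 in xenografts, 3.20 ± 0.09 in spheres and 2.39 ± 0.30 in adherent cells (SD, n = 3 each), so the sphere arrays stood above both other groups (exact permutation test, two-sided p = 0.1 each, the smallest that 3 against 3 allows). The same difference for GAPDH was 0.53 ± 0.11, 0.62 ± 0.05 and 0.54 ± 0.13. The spiked poly-A control RNAs averaged 7.37 ± 0.36 in xenografts, above 6.59 ± 0.16 in spheres and 6.76 ± 0.15 in adherent cells. The part of RNA integrity and of these controls in the results below was not tested.

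Averaged over the 32 genes, the 3 sphere arrays lay at 7.92 to 7.98, below the xenograft arrays (8.43 to 8.57) and the adherent arrays (8.53 to 8.60). For 19 of the 32 genes every sphere array was below all of the other 6 arrays, a pattern that 16.3% of all genes show. It held for 14 of the 19 sterol genes and 5 of the 13 fatty acid genes. The SD between replicates had a median over the 32 genes of 0.143 in xenografts, 0.0859 in spheres and 0.0832 in adherent cells. An SD over 0.25 was seen for 8 genes in xenografts, 2 in spheres and 1 in adherent cells, with MSMO1 widest in xenografts (0.451) and INSIG1 widest in adherent cells (0.314). Xenograft replicate 3 was the highest of its group for 15 of the 32 genes, and adherent replicate 2 the highest of its group for 20.

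**Figure D1:**
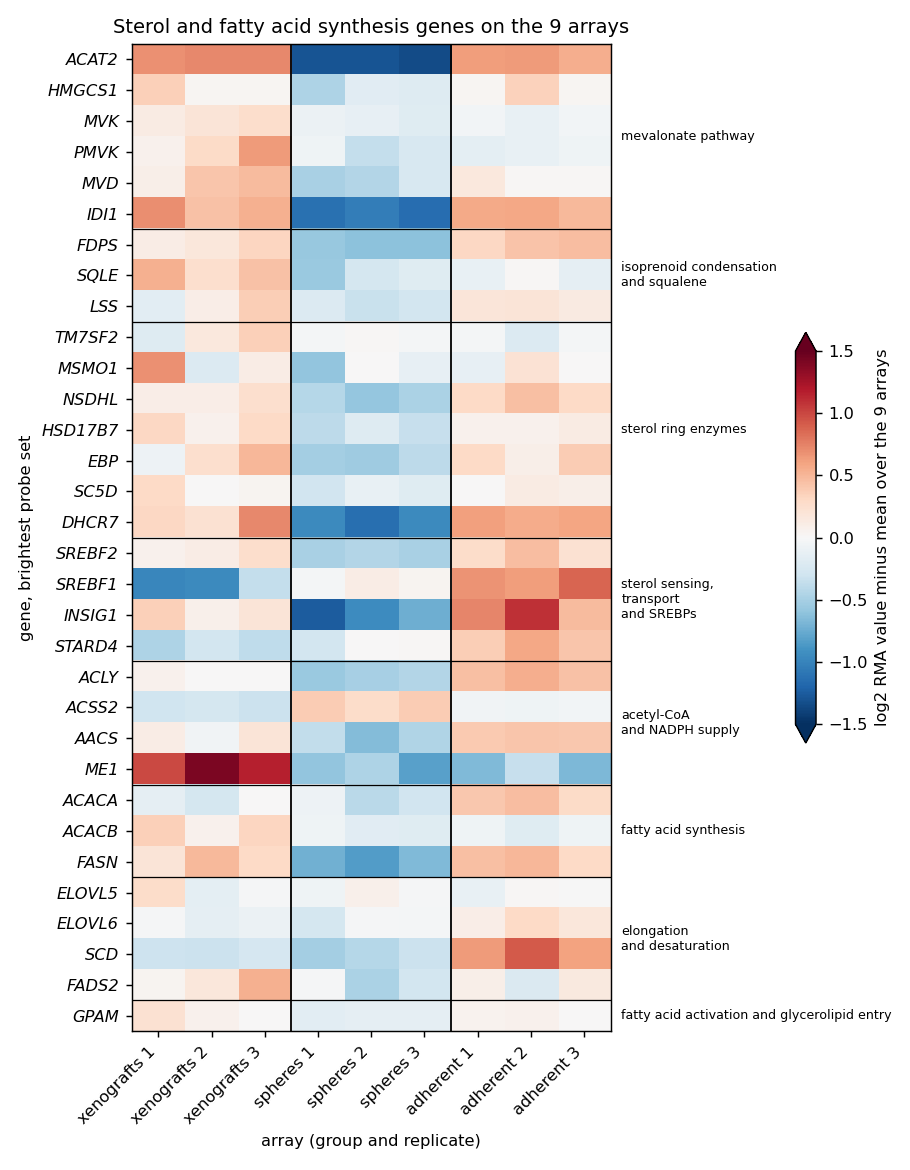
Each cell is the log2 RMA value of 1 gene on 1 array minus that gene's mean over the 9 arrays (red above, blue below), with genes in pathway order and arrays grouped as xenografts, spheres and adherent cells. The sphere columns are blue for most sterol genes, ACSS2 runs the other way, and SREBF1, STARD4 and SCD are clearly red in adherent cells alone.

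These are bulk samples, in which fewer cells of a kind and less RNA per cell cannot be told apart. Spheres and adherent cells were compared first, to see how the pathway moves when a monolayer is moved to sphere culture. In spheres 19 of the 32 genes were lower and 1 was higher, which is 59.4% and 3.12%, against 16.3% lower and 13.5% higher over all genes. The median log2 change was -0.45, against -0.04 over all genes, with a range of -1.91 to 0.40 and 29 genes below 0. All the calls in the sterol branch were falls, 13 of 19, with a median of -0.45. In the fatty acid branch 6 of 13 fell and 1 rose, with a median of -0.29. Counted over probe sets, 33 of 77 were lower and 3 higher, against 12.6% and 13.3% of all probe sets. The fall was at least 2-fold for 6 genes, ACAT2, INSIG1, IDI1, DHCR7, FASN and SCD.

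The mevalonate enzymes, which take acetyl-CoA to the 5-carbon isoprenoid unit, fell for 4 of 6 genes. ACAT2, the thiolase that joins the first pair of acetyl-CoA molecules, read 7.91, 7.91 and 7.86 in the 3 spheres, against 9.84, 9.84 and 9.75 in the 3 adherent cultures. It had the largest change of the 32 genes, -1.91 (SE 0.08, limma adjusted p = 6.98e-08), about 0.265 of the adherent level. IDI1, which isomerises isopentenyl diphosphate, read 8.63, 8.70 and 8.60 in spheres and 10.31, 10.33 and 10.23 in adherent cells, a change of -1.65 (SE 0.10, adjusted p = 4.34e-07). The groups were far apart for both genes and the replicates close together. The second bright probe set of IDI1 gave -1.69. Both bright probe sets carry the suffix that marks possible cross-hybridisation. The only one of its 4 without such a suffix was called at 0.37 in the other direction. That probe set is less bright, at percentile 59.0 of all probe sets. MVD, the decarboxylase that makes isopentenyl diphosphate, fell by 0.45, and HMGCS1, which makes HMG-CoA, fell by 0.41. MVK and PMVK, the kinases between them, changed by -0.07 and -0.11 and were not called.

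From farnesyl diphosphate to cholesterol, 6 of 10 genes fell and none rose. FDPS, which builds farnesyl diphosphate, read 9.44, 9.39 and 9.39 in spheres and 10.31, 10.42 and 10.46 in adherent cells, a change of -0.99 (SE 0.09, adjusted p = 1.14e-05). DHCR7, which makes cholesterol from 7-dehydrocholesterol, read 6.60, 6.41 and 6.59 in spheres against 8.16, 8.10 and 8.14 in adherent cells, a change of -1.60 (SE 0.12, adjusted p = 3.15e-06). NSDHL, one of the enzymes that strip methyl groups from the sterol ring, read 7.20, 7.05 and 7.15 in spheres and 7.93, 8.08 and 7.93 in adherent cells. EBP, the sterol isomerase, read 8.28, 8.25 and 8.39 in spheres and 9.08, 8.87 and 9.16 in adherent cells. The groups did not overlap for any of the 4, and the changes of NSDHL and EBP were -0.85 (SE 0.09, adjusted p = 4.24e-05) and -0.73 (SE 0.14, adjusted p = 0.00191). LSS, which closes the ring as lanosterol, fell by 0.44 and HSD17B7 by 0.39. The genes of this stretch that were not called were SQLE (-0.26), SC5D (-0.27), MSMO1 (-0.27) and TM7SF2 (0.07).

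Of the 36 listed genes, the 4 for sterol sensing, sterol transport and the SREBPs were all lower in spheres. INSIG1, itself a target of the SREBPs, read 7.07, 7.37 and 7.59 in spheres and 9.06, 9.42 and 8.79 in adherent cells, a change of -1.74 (SE 0.17, adjusted p = 1.50e-05), with all 3 of its probe sets lower. SREBF2 read 6.51, 6.54 and 6.50 in spheres against 7.27, 7.45 and 7.22 in adherent cells, a change of -0.80 (SE 0.10, adjusted p = 7.86e-05). SREBF1 read 7.75, 7.88 and 7.81 in spheres against 8.45, 8.41 and 8.64 in adherent cells, a change of -0.69 (SE 0.15, adjusted p = 0.00493). No array of one group reached the other for these 3 genes. STARD4, a soluble carrier of cholesterol between membranes, fell by 0.54.

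Among genes that supply acetyl-CoA and NADPH, both directions occurred. ACLY, which splits citrate into cytosolic acetyl-CoA, read 10.84, 10.90 and 10.96 in spheres and 11.85, 11.94 and 11.84 in adherent cells, a change of -0.97 (SE 0.09, adjusted p = 7.07e-06). AACS, which activates acetoacetate, read 9.01, 8.72 and 8.93 in spheres and 9.77, 9.80 and 9.79 in adherent cells, a change of -0.90 (SE 0.10, adjusted p = 5.42e-05). ACSS2, which makes acetyl-CoA from acetate instead of citrate, was the 1 gene of the 32 that rose. It read 6.94, 6.83 and 6.94 in spheres against 6.50, 6.49 and 6.51 in adherent cells, a change of 0.40 (SE 0.08, adjusted p = 0.00323). ME1, the cytosolic malic enzyme, changed by -0.07 and was not called.

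For fatty acids themselves, FASN, SCD and ACACA fell on their brightest probe sets, and each result depended on the probe set. FASN, the fatty acid synthase, read 7.49, 7.38 and 7.54 in spheres and 8.66, 8.70 and 8.51 in adherent cells, a change of -1.16 (SE 0.10, adjusted p = 9.38e-06). Its other, dimmer probe set gave -0.22 and was not called. SCD, the stearoyl-CoA desaturase that makes oleate, read 10.73, 10.81 and 10.91 in spheres and 11.87, 12.16 and 11.83 in adherent cells, a change of -1.14 (SE 0.10, adjusted p = 1.06e-05). Another probe set of SCD was called at -0.88, and the remaining ones gave -0.25 and -0.33 and were not called. ACACA, the cytosolic acetyl-CoA carboxylase, fell by 0.64 on its brightest probe set, while the other gave 0.26 and the mean of both -0.19, which was not called (adjusted p = 0.145). ACACB, its mitochondrial relative, changed by -0.03. The elongases ELOVL5 (0.04) and ELOVL6 (-0.29), the desaturase FADS2 (-0.26) and the acyltransferase GPAM (-0.19) were not called on their brightest probe sets. A dimmer probe set of ELOVL6 was called at -1.48, one of ELOVL5 at 0.34 and one of MVK at -0.27.

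Of the 20 calls in spheres, 3 were lost with single arrays left out. HMGCS1 was not called without any one of the 6 arrays of these groups (adjusted p 0.055 to 0.168). LSS was lost without any adherent array, sphere replicate 2 or sphere replicate 3 (0.0501 to 0.0702), and MVD without adherent replicate 1, sphere replicate 1 or sphere replicate 2 (0.0518 to 0.0634). HMGCS1 read exactly 9.40 on 4 arrays. When the probe sets of a gene were averaged, ACACA and HMGCS1 (adjusted p = 0.0524) lost their calls, and smaller changes of -0.69 for IDI1, -0.37 for EBP, -0.50 for SREBF2, -0.44 for SREBF1, -0.69 for FASN and -0.65 for SCD were still called. Without suffixed probe sets EBP was at -0.47. ACAT2, MVD, HSD17B7, DHCR7, ACLY, ACSS2, AACS, FASN and SCD have only suffixed probe sets, so this check could not be made for them.

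**Figure D2:**
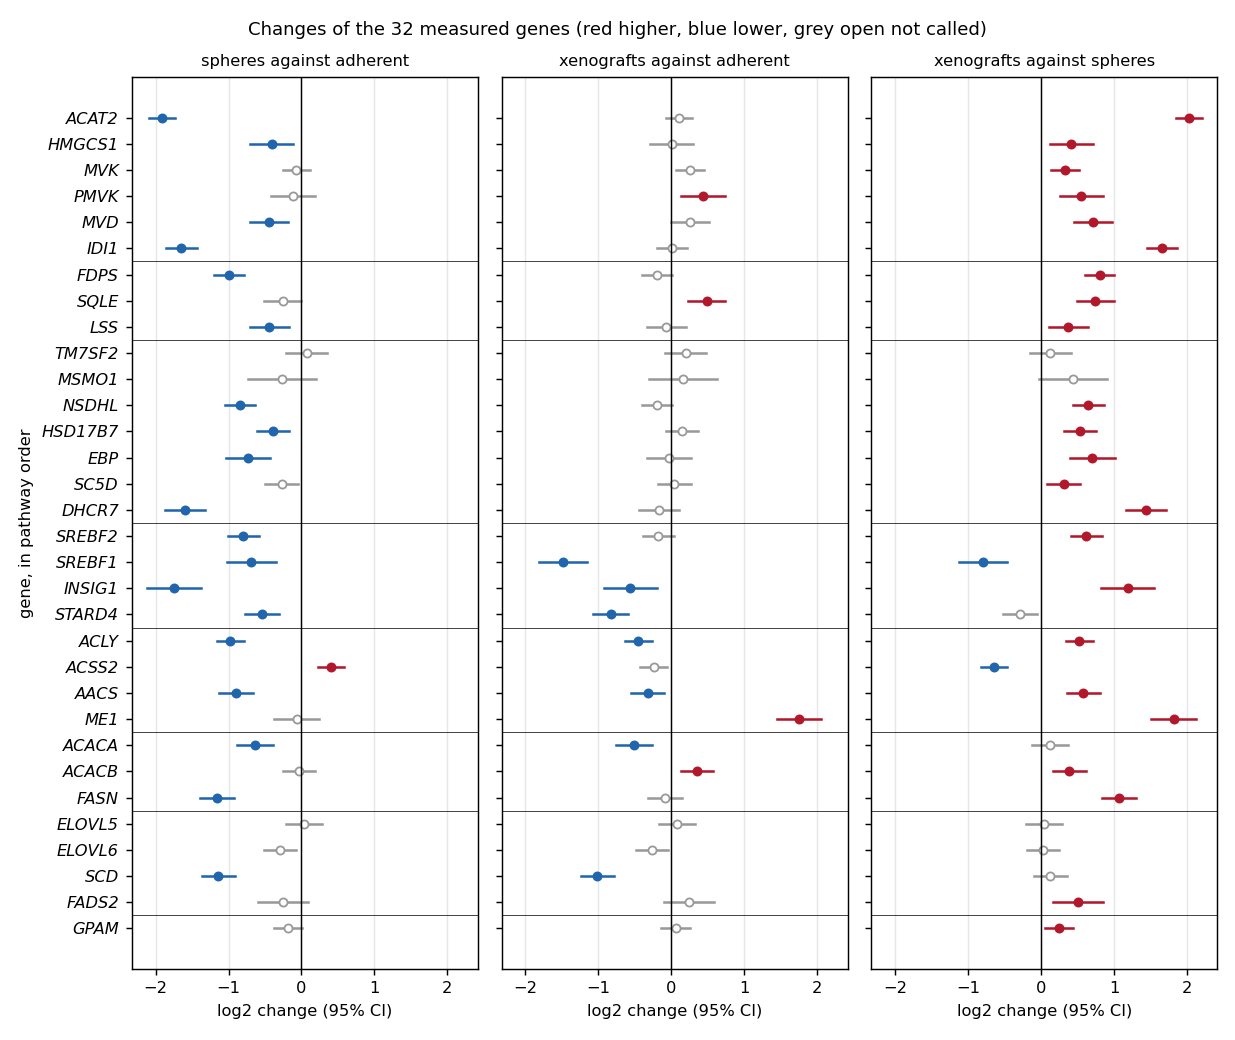
Log2 changes of the 32 genes with 95% confidence intervals in the 3 comparisons, in pathway order, where filled red points were called higher, filled blue points lower and open grey points were not called. In spheres against adherent cells 19 points are blue, in xenografts against adherent cells most straddle 0, and in xenografts against spheres 23 are red.

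Xenografts and adherent cells were compared to see how the same genes stood in tumours grown in mice, with the same 3 adherent arrays as before. Here 4 of the 32 genes were higher and 7 lower, 12.5% and 21.9%, against 12.6% and 14.3% over all genes, so the share of genes higher was near that of the array as a whole. The median change was -0.01, against 0.08 over all genes, with 16 genes on either side of 0. Quantile normalization gave 5 higher and 5 lower, and median centring of the arrays gave 2 and 8. The number of higher genes was 2 without adherent replicate 1, adherent replicate 2 or xenograft replicate 3, and 1 without adherent replicate 3. Counted over probe sets, 6 of 77 were higher and 15 lower, against 9.78% and 13.2% of all probe sets. In the sterol branch 2 of 19 genes were higher and 2 lower (median 0.01), and in the fatty acid branch 2 of 13 were higher and 5 lower (median -0.24).

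SREBF1 read 6.80, 6.82 and 7.41 in xenografts against 8.45, 8.41 and 8.64 in adherent cells, a change of -1.49 (SE 0.15, adjusted p = 5.00e-05), with replicate 3 well above the other xenografts and still below every adherent array. INSIG1 read 8.68, 8.39 and 8.51 in xenografts and 9.06, 9.42 and 8.79 in adherent cells, a change of -0.56 (adjusted p = 0.0331). STARD4 read 8.50, 8.68 and 8.58 in xenografts against 9.33, 9.54 and 9.38 in adherent cells, a change of -0.83 (SE 0.11, adjusted p = 2.59e-04). SREBF2, at 7.05, 7.10 and 7.25 in xenografts, overlapped the adherent arrays and its change of -0.18 was not called (adjusted p = 0.20).

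SCD read 10.92, 10.91 and 10.98 in xenografts and 11.87, 12.16 and 11.83 in adherent cells, a change of -1.01 (SE 0.10, adjusted p = 5.62e-05). A second probe set of SCD was called at -0.55, the other 2 gave 0.24 and 0.15 and were not called, and the mean of its 4 probe sets changed by -0.29 (adjusted p = 0.0382). ACACA fell by 0.51, ACLY by 0.45 and AACS by 0.32 on the log2 scale, and a dimmer probe set of ACACA was called at 0.57 in the other direction. With probe sets averaged, ACACA changed by 0.03 and SQLE by 0.20, neither called, SREBF1 by -0.85 and ME1 by 0.72. ELOVL6 and ELOVL5 were called on dimmer probe sets and not on their brightest. That of ELOVL6 was lower, averaging 5.37 in xenografts against 6.93 in adherent cells, and that of ELOVL5 higher, 6.75 against 6.11. ME1, which makes NADPH for reductive synthesis, read 4.89, 5.31 and 5.06 in xenografts against 3.23, 3.56 and 3.22 in adherent cells, a change of 1.75 (SE 0.14, adjusted p = 8.84e-06). No xenograft array came near the others, yet this probe set is dim, at percentile 34.5 of all probe sets, and the other 2 probe sets of ME1 gave 0.21 each and were not called. SQLE, the squalene epoxidase, was higher by 0.48 (adjusted p = 0.0118), PMVK by 0.44 (0.0397) and ACACB by 0.35 (0.0284).

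None of the ring enzymes was called between xenografts and adherent cells, with changes from -0.20 for NSDHL to 0.20 for TM7SF2. The 95% confidence interval was -0.07 to 0.29 for ACAT2, -0.20 to 0.22 for IDI1, -0.44 to 0.11 for DHCR7 and -0.32 to 0.14 for FASN. Of the 4 higher and 7 lower genes, 5 lost their call with single arrays left out. PMVK was lost without any adherent array, sphere replicate 3, or xenograft replicate 2 or 3 (adjusted p 0.058 to 0.111). AACS was lost without any adherent array, sphere replicate 3, or xenograft replicate 1 or 2 (0.0559 to 0.128). ACACB was lost without any adherent array or xenograft replicate 1 or 3 (0.0594 to 0.109). INSIG1 was lost without adherent replicate 1 or 2 or xenograft replicate 2 or 3 (0.0725 to 0.138), and SQLE without adherent replicate 3 (0.0502).

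The tumours hold mouse tissue and the arrays read human probes, so markers of other cell types were read beside these values. Of the 9 adipocyte markers, LEP alone was called in xenografts against adherent cells (0.37), and their mean lay at 4.07 to 4.14 on xenograft arrays, 3.85 to 4.03 on sphere arrays and 3.76 to 3.96 on adherent arrays, with ADIPOQ at 2.30, 2.12 and 2.15 in the same order. None of the 6 measured macrophage and leukocyte markers was called, with means of 3.60 to 3.78 in xenografts and 3.46 to 3.63 in adherent cells, and 1 of 6 endothelial markers was higher. Fibroblast markers were higher for 4 of 7 genes and lower for 1 (means 6.99 to 7.24 in xenografts and 6.50 to 6.63 in adherent cells). Their changes ran from -0.81 to 2.82. Adult muscle markers were higher for 4 of 8 and lower for 1 (4.79 to 4.97 and 4.36 to 4.43), with changes from -0.99 to 2.40. Over all genes, 12.6% were higher and 14.3% lower in xenografts than in adherent cells. In xenografts against spheres, 5 of 8 muscle markers were higher and 1 lower, with changes up to 2.30. Of 7 fibroblast markers, 2 were higher and 1 lower, with changes up to 3.01. Higher too were 2 of 6 endothelial and 1 of 6 leukocyte markers, and no adipocyte marker was called. The shares over all genes there were 25.7% higher and 18.3% lower. The part of these other cell types in the xenograft values was not tested.

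Xenografts were also set against spheres directly. These values share the sphere arrays with the first comparison, so the 2 are not independent. In xenografts 23 of the 32 genes were higher and 2 lower, 71.9% and 6.25%, against 25.7% and 18.3% over all genes. The median change was 0.51, against 0.13 over all genes, with a range of -0.80 to 2.02 and 29 genes above 0. In the sterol branch 16 of 19 were higher and none lower (median 0.62), all 6 mevalonate enzymes and 5 of 7 ring enzymes among them, and in the fatty acid branch 7 of 13 were higher and 2 lower (median 0.25). Over probe sets, 44 of 77 were higher and 4 lower, against 20.6% and 18.5% of all probe sets.

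ACAT2 read 9.90, 9.92 and 9.92 in xenografts against 7.91, 7.91 and 7.86 in spheres, a change of 2.02 (SE 0.08, adjusted p = 2.97e-08), which is 4.06-fold. IDI1 read 10.44, 10.18 and 10.27 in xenografts against 8.63, 8.70 and 8.60 in spheres. It was 3.15-fold higher in xenografts (log2 change 1.65, adjusted p = 2.94e-07). Its probe set without a cross-hybridisation suffix was called at -0.59, in the other direction. DHCR7 read 7.86, 7.78 and 8.27 in xenografts against 6.60, 6.41 and 6.59 in spheres, 2.71-fold higher (1.44, adjusted p = 5.27e-06). For each of the 3 genes, the lowest xenograft array lay more than 1 log2 unit above the highest sphere array.

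ME1 was higher in xenografts on its dim probe set (1.82, adjusted p = 2.04e-06), with spheres at 3.30, 3.43 and 3.08, near the lower quartile of an array. INSIG1 was 2.27-fold higher (1.18, adjusted p = 2.03e-04) and FASN 2.10-fold higher (1.07, adjusted p = 1.29e-05). The 2 genes lower in xenografts were SREBF1, at -0.80 (SE 0.15, adjusted p = 0.00146), and ACSS2, at -0.64 (SE 0.08, adjusted p = 9.35e-05), with ACSS2 at 6.26, 6.29 and 6.23 in xenografts and 6.94, 6.83 and 6.94 in spheres. SREBF1 and SREBF2 thus lay in opposite order between these groups, SREBF2 being higher by 0.62 (SE 0.10, adjusted p = 4.07e-04). SCD (0.13), ACACA (0.13) and STARD4 (-0.29) were not called on their brightest probe sets, but the other 3 probe sets of SCD were called higher, at 0.33, 0.49 and 0.48. Averaging a gene's probe sets gave 0.66 for IDI1, 0.45 for EBP, 0.77 for INSIG1, 0.71 for FASN, 0.68 for ME1, 0.25 for ACACB and -0.40 for SREBF1, all still called, while HMGCS1 (0.20, adjusted p = 0.159) and SQLE (0.25, adjusted p = 0.123) lost their calls.

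GPAM was called at 0.25 on its brightest probe set and at -0.64 on another nearly as bright, so its direction is not settled. Its call was also lost without any one of 8 arrays, all but xenograft replicate 3 (adjusted p 0.0632 to 0.114). HMGCS1 was lost without sphere replicate 1 (0.0973) or xenograft replicate 1 (0.0869), and LSS without sphere replicate 2 or 3 or xenograft replicate 2 or 3 (0.0641 to 0.101). SC5D was lost without sphere replicate 1 or 3 or xenograft replicate 1 (0.0756 to 0.0966), and FADS2 without sphere replicate 2 or 3 or xenograft replicate 3 (0.0683 to 0.0981).

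**Figure D3:**
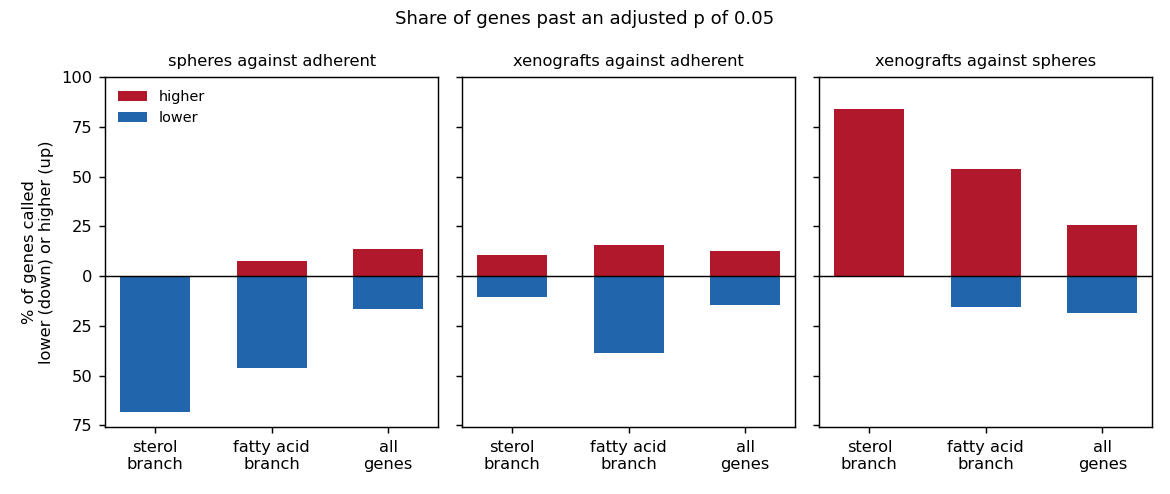
Percent of genes called higher (red, up) or lower (blue, down) by limma at an adjusted p under 0.05 in the 19 sterol genes, the 13 fatty acid genes and all 19775 genes. The sterol bar points down in spheres against adherent cells (13 of 19), is short both ways in xenografts against adherent cells (2 and 2) and points up in xenografts against spheres (16 of 19).

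Genes around the pathway were counted from lists of their own, and no list was tested against the others. Their counts stand beside the shares over all genes, 13.5% higher and 16.3% lower in spheres than in adherent cells, 12.6% and 14.3% in xenografts than in adherent cells, and 25.7% and 18.3% in xenografts than in spheres. The SREBP processing machinery, 8 genes measured of 10, had 5 higher and none lower in spheres than in adherent cells (median 0.45), 1 higher and none lower in xenografts than in adherent cells, and none higher and 5 lower in xenografts than in spheres (median -0.35). INSIG2, the relative of INSIG1 that also holds SCAP back, read 7.80, 8.04 and 8.27 in spheres against 7.16, 7.27 and 7.05 in adherent cells, a change of 0.88 (SE 0.16, adjusted p = 0.00126). In xenografts it read 7.75, 7.28 and 7.19. The ubiquitin ligase RNF139 rose by 0.91, ERLIN2, which helps degrade sterol-regulated proteins, by 0.85 and MBTPS2, the protease that makes the second SREBP cleavage, by 0.59. SCAP changed by 0.08 and was not called.

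The list of liver X receptor and sterol efflux genes, 8 of 10 measured, held the widest change among the 10 lists. CH25H, which makes 25-hydroxycholesterol, an oxysterol that binds INSIG proteins and blocks SREBP processing, read 6.92, 6.69 and 6.99 in spheres against 3.61, 3.50 and 3.61 in adherent cells. The change was 3.29 (SE 0.19, adjusted p = 4.34e-07). In xenografts it read 2.67, 3.36 and 2.45, a change of -4.04 against spheres (adjusted p = 7.78e-08) and of -0.75 against adherent cells (adjusted p = 0.0147). The second of these calls was lost without adherent replicate 3 (adjusted p = 0.053). The adherent and xenograft values lie near or below the lower quartile of an array (3.26 to 3.39) and RMA values carry no background call, so the sizes of these changes are not settled, nor is a drop between groups that are both dim. The list as a whole had 2 genes higher and 1 lower in spheres than in adherent cells, 1 and 2 in xenografts than in adherent cells, and 1 and 1 in xenografts than in spheres. NR1H3, the receptor LXR alpha, rose by 0.57 in spheres, and the efflux pump ABCA1 stayed dim, at 3.36 to 3.57 on all 9 arrays.

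**Figure D4:**
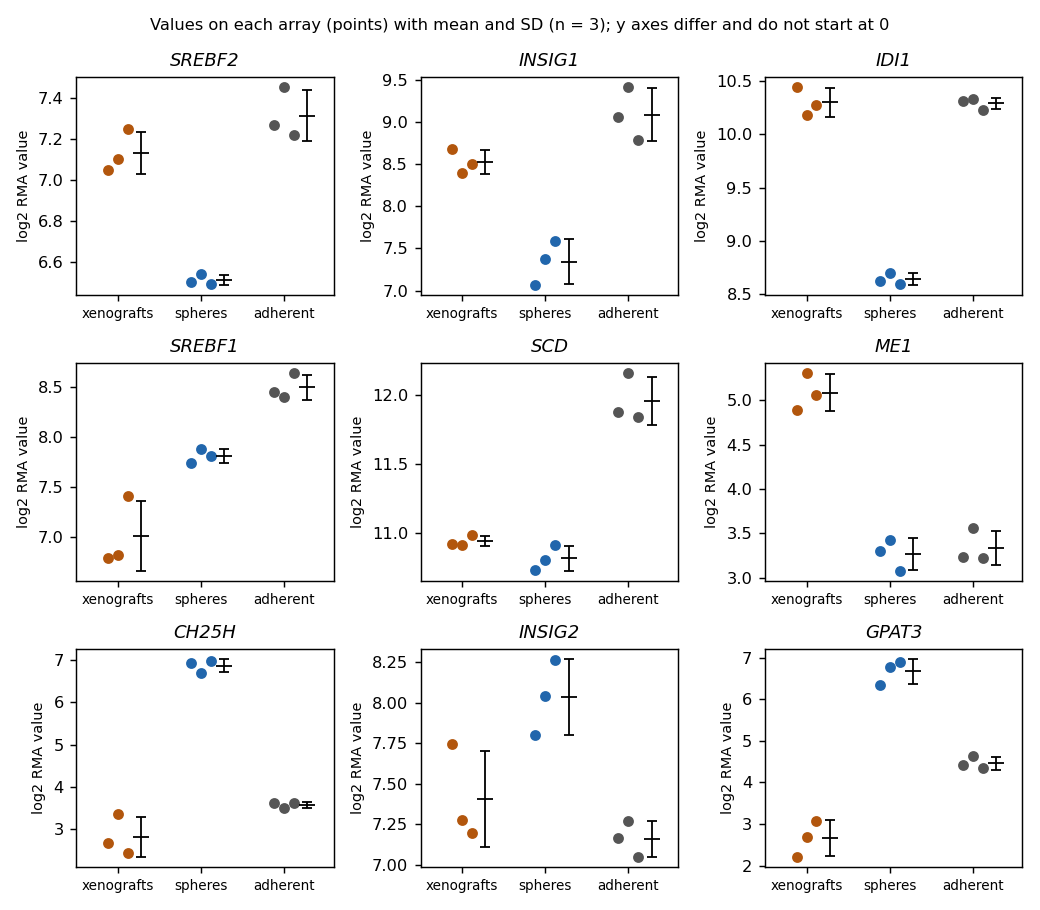
Log2 RMA values on each array (points) with the mean and SD of each group (n = 3) for SREBF2, INSIG1, IDI1, SREBF1, SCD, ME1, CH25H, INSIG2 and GPAT3, with xenografts, spheres and adherent cells from left to right and a different y range in each panel. SREBF2, INSIG1 and IDI1 are lowest in spheres, CH25H, INSIG2 and GPAT3 highest in spheres, SREBF1 lowest in xenografts and ME1 high in xenografts alone.

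Of 13 genes of sterol transport and esterification, 4 were higher and 3 lower in spheres than in adherent cells, none and 3 in xenografts than in adherent cells, and 1 and 7 in xenografts than in spheres. SOAT1, which esterifies cholesterol for storage, fell by 1.03 in spheres (adjusted p = 1.92e-05). LIPA, the lysosomal lipase that frees cholesterol, rose by 0.65 on its brightest probe set. With its probe sets averaged, LIPA changed by 0.27 and was not called (limma adjusted p = 0.0524). CAV1, the coat protein of caveolae, read 6.43, 6.26 and 5.87 in xenografts against 8.67, 8.65 and 8.56 in adherent cells, a change of -2.44 (SE 0.13, adjusted p = 8.11e-07). Of 12 measured genes of the nonsterol isoprenoid branch, which leads to ubiquinone, dolichol and prenylated proteins, 2 were higher and 4 lower in spheres than in adherent cells, 2 and 0 in xenografts than in adherent cells, and 5 and 2 in xenografts than in spheres.

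Of 11 measured genes of glycerolipid synthesis, 1 was higher and none lower in spheres than in adherent cells, 2 and 4 in xenografts than in adherent cells, and 2 and 6 in xenografts than in spheres. The 1 higher in spheres was GPAT3, an acyltransferase of the first step, at 6.34, 6.77 and 6.91 in spheres against 4.41, 4.64 and 4.34 in adherent cells, a change of 2.21 (SE 0.20, adjusted p = 1.07e-05). In xenografts it read 2.21, 2.69 and 3.07, a change of -1.81 against adherent cells (adjusted p = 9.96e-05), with all 3 xenograft values under the lower quartile of their arrays, so the size of this change is not settled either. GPAM, an acyltransferase of the same step, changed by -0.19 in spheres and 0.06 in xenografts against adherent cells on its brightest probe set, and by 0.02 and -0.63 (the last called, adjusted p = 9.08e-04) on the other, nearly as bright. Among 11 regulators of lipid synthesis, 1 was higher and 2 lower in spheres than in adherent cells, 1 and 3 in xenografts than in adherent cells, and 2 and 3 in xenografts than in spheres. PRKAB2, a subunit of the kinase AMPK, read 10.96, 10.80 and 10.85 in spheres against 8.37, 8.49 and 8.37 in adherent cells, a change of 2.46 (SE 0.11, adjusted p = 8.55e-08), and 8.45, 8.07 and 8.32 in xenografts.

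Of 11 measured genes of citrate and NADPH supply, 1 was higher and 6 lower in spheres than in adherent cells, none and 3 in xenografts than in adherent cells, and 5 and 2 in xenografts than in spheres. PC, the pyruvate carboxylase, fell by 1.28 in spheres (adjusted p = 1.25e-05), and IDH1, the cytosolic isocitrate dehydrogenase that makes NADPH, rose by 0.96 (adjusted p = 3.06e-05). The 13 measured genes of other elongation, desaturation and activation steps gave 3 higher and 5 lower in spheres than in adherent cells, none and 6 in xenografts than in adherent cells, and 4 and 6 in xenografts than in spheres. ELOVL2, an elongase of polyunsaturated fatty acids, fell by 1.41 in spheres. Fatty acid oxidation, 19 of 21 measured, had 3 higher and 8 lower in spheres than in adherent cells, 4 and 3 in xenografts than in adherent cells, and 7 and 6 in xenografts than in spheres. HADH, a dehydrogenase of mitochondrial beta-oxidation, fell by 1.24 in spheres (adjusted p = 4.08e-06). Of 11 genes of lipid droplets and lipolysis, 1 was higher and 2 lower in spheres than in adherent cells, 1 and 1 in xenografts than in adherent cells, and 3 and 1 in xenografts than in spheres. G0S2, an inhibitor of the lipase ATGL, rose by 1.51 in spheres (adjusted p = 4.55e-05).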

How the data were processed

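RNA of 9 Rh30 samples was measured on Affymetrix U133 Plus 2.0 arrays. The authors ran RMA on all 9 arrays at once, and the deposited values are log2 RMA values per probe set, not centred on a group. Which RMA program they ran is not given in the sources used here. After 62 control probe sets were set aside, 54613 of 54675 probe sets entered 1 limma fit (version 3.58.1, R 4.3.3, eBayes, a coefficient for each group, 6 residual degrees of freedom), with Benjamini-Hochberg adjustment over the whole array. Gene names came from the array's annotation, checked against RefSeq: 41091 probe sets had 1 symbol, 1801 several and 11721 none. Each gene was read from its brightest probe set with 1 symbol. RNA quality was compared by exact permutation tests.

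The 36 genes, the lists around them and the marker lists were chosen with earlier results of these data known. Values on every array are given for SREBF1, SREBF2 and INSIG1, for the 12 called genes with the largest change in spheres against adherent cells and for the 5 with the largest change in each xenograft comparison, and up to 3 called genes of each further list whose groups do not overlap are named. ACSS2 is given by array as the only gene of its direction, SCAP and ABCA1 were named after their values were seen, and per-array values of list genes were added the same way. The further lists are SREBP processing, nonsterol isoprenoids, sterol transport, liver X receptors and efflux, other fatty acid steps, citrate and NADPH supply, glycerolipids, regulators, fatty acid oxidation and lipid droplets.

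The alternatives were quantile normalization, median centring, brighter probe sets only, pairwise fits, a variance trend, array weights, a replicate block, the methods' t-test, a 2-fold threshold, other choices of probe set and each array left out in turn. The fit was tested on simulated data. The methods call the replicates biological without saying whether cultures or mice were separate, so p-values measure only the spread between these samples, which may be technical. The number of arrays limits the precision.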

Additional observations from a re-analysis of the deposited data

How the results depend on the processing

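The 56 calls of the 32 genes gave 1152 values under the alternatives, of which 1004 kept their direction and call, 144 kept the direction alone and 4 turned round. With the probe sets that have no cross-hybridisation suffix, the change of IDI1 was 0.37 in spheres against adherent cells and -0.59 in xenografts against spheres. When all probe sets of a gene were averaged, ACACA was at 0.0296 in xenografts against adherent cells and GPAM at -0.20 in xenografts against spheres. Of 83 calls of named genes in the further lists, 4 turned round with probe sets without a suffix: TKT at 0.73, PDSS1 at 0.00783 and TECR at 0.21 in spheres against adherent cells, and TKT at -0.66 in xenografts against spheres.

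A 2-fold threshold left 0 genes higher and 6 lower in spheres against adherent cells, 1 and 2 in xenografts against adherent cells, and 6 and 0 in xenografts against spheres. Probe sets without a suffix, which measure 21 of the genes, gave 10 lower in spheres, 4 lower in xenografts against adherent cells, and 13 higher in xenografts against spheres with a median change of 0.39. The number of genes higher in xenografts against adherent cells was 2 with median centring, 2 in a fit on the compared groups alone, 1 by the methods' t-test after Benjamini-Hochberg adjustment, and 1 to 6 with each array left out in turn. The adjusted t-test gave 15 higher and 1 lower in xenografts against spheres, and averaged probe sets gave 4 lower and a median of 0.43. Quantile normalization moved the median to 0.11 in xenografts against adherent cells and to 0.59 in xenografts against spheres. With each array left out in turn, 16 to 21 genes were lower in spheres against adherent cells, 19 to 22 higher in xenografts against spheres, and 5 to 7 lower in xenografts against adherent cells.

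Replicate numbers do not pair the arrays: same-numbered arrays deviated together in 2 of 9 pairs above a correlation of 0.1 (range -0.18 to 0.18). With the replicate number as a block, 1 gene was higher and 18 lower in spheres against adherent cells, 3 and 5 in xenografts against adherent cells, and 21 and 3 in xenografts against spheres, and 6 of the 56 calls were lost.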
